A study of Mus musculus with 3 samples.

Results

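The immunoglobulin heavy-chain variable genes of the mouse, named Ighv, were read in B cells of the aorta. The members were all 185 rows of the count matrices whose symbol starts with Ighv (183 symbols), out of 32285 genes. They were followed in 7210 barcodes that had at least 200 genes, at most 10% mitochondrial counts, at least 1 count of the B cell receptor gene Cd79a and none of the macrophage gene Csf1r or the T cell gene Cd3e. Each of these gated B cells was assigned the Ighv gene with the most unique molecular identifiers (UMIs, counts of distinct captured RNA molecules) when that gene had at least 3, and ties were left unassigned. This gave 82 assigned cells, and the same assignment at 1 UMI gave 975.

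A B cell joins 1 V gene to a D and a J segment early in its life and, as a rule, makes a heavy chain from that single V gene only. The V gene then stays the same while the constant gene can switch from Ighm and Ighd to Ighg, Igha or Ighe. Follicular B cells use a broad set of V genes and carry the low-affinity IgE receptor encoded by Fcer2a. B1 cells, which make natural antibodies and express the transcription factors encoded by Bhlhe41 and Zbtb32, are known in mice for a narrower set, with Ighv11-2 and Ighv12-3 in cells that bind phosphatidylcholine. Plasma cells secrete antibody and hold far more immunoglobulin RNA than other B cells.

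The series compared CD45+ cells (blood-derived cells) sorted from whole aortas, adventitia included, of Apoe-/- mice on the C57BL/6J background. There was 1 droplet library per group, labelled Control, HHcy (drinking water with homocysteine at 1.8 g/L for 4 weeks) and WD (western diet for 4 weeks), and the labels give the strain of all 3 as Apoe-/-. The labels used here give no number of pooled animals, age or sex. Apoe itself stood at a CPM (its UMIs scaled to the library's total) of 16.3 in the Control, 374 in the HHcy and 19.3 in the WD library, so the value in the HHcy library goes against the Apoe-/- strain its label gives, and it is called the library labelled HHcy. No test between groups was possible with a single library in each, and every interval given here is a 95% interval that covers counting error only.

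All 185 members matched GENCODE M21 on the genome build GRCm38 and lay on chromosome 12 between 113572927 and 116010093, a stretch of 2.44 Mb, with 183 members on the minus strand. The annotation lists 115 of them as genes and 70 as pseudogenes. The last 300 bases of the V exons of 5 genes are printed because the results turn on them. Ighv11-2 and Ighv12-3 were found mainly in the B1-type gate, and Ighv1-82 is among the genes whose direction between the gates turned with the fit. Ighv1-78 and Ighv1-74 led the repeated pairs of heavy and kappa V genes. Each comes from exon 2 of 2, on the minus strand, and the capitals mark the last tgt triplet of the exon and the bases after it, at the end that is joined to the D segment.
The stretches lie at chr12:114048241-114048540 (Ighv11-2), chr12:114366521-114366820 (Ighv12-3), chr12:115952538-115952837 (Ighv1-82), chr12:115868773-115869072 (Ighv1-78) and chr12:115802648-115802947 (Ighv1-74).
Ighv11-2: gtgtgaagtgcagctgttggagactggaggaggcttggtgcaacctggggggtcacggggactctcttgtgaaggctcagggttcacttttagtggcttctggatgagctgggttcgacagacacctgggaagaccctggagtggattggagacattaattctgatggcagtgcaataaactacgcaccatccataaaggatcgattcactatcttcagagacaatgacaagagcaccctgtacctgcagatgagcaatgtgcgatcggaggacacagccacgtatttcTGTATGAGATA
Ighv12-3: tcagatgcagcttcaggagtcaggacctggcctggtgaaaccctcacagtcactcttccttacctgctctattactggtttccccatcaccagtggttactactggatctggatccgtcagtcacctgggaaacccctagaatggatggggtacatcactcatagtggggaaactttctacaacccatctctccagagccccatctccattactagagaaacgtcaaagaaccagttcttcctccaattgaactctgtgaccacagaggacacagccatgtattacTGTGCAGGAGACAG
Ighv1-82: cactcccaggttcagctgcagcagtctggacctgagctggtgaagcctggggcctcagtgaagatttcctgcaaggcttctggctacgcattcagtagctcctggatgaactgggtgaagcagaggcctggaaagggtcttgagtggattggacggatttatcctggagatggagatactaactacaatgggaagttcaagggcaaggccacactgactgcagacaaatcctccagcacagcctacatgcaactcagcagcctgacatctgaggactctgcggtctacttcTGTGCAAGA
Ighv1-78: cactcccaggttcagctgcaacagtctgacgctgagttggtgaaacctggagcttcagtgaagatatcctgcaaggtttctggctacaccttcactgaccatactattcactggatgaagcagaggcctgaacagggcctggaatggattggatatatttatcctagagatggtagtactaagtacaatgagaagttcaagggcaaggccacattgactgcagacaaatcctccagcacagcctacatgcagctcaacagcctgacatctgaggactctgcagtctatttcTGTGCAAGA
Ighv1-74: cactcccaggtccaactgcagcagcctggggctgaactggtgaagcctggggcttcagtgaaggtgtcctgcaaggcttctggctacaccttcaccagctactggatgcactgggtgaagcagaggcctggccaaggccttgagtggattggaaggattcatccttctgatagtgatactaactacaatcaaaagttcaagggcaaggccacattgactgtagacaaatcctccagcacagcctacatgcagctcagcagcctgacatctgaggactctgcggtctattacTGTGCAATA
Of these, Ighv12-3 is the most distinct, with 81.7% identity to its nearest other member (Ighv3-2) and every 60-base stretch found in no other member. Ighv11-2 is 98.7% identical to Ighv11-1, and 57.3% of its 60-base stretches are unique to it, so reads from the pair could be split or dropped by the authors' counting. For 86 of the 185 members another member was at least 95% identical.

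Of the 185 members, 103 had at least 1 UMI in the gated cells. These were 93 of the 115 annotated genes and 10 of the 70 pseudogenes, and the pseudogenes held 0.65% of the 2308 Ighv UMIs. Family 1, the largest, had 93 members and held 1100 of these UMIs. The 22 annotated genes without a UMI had a median of 85% unique 60-base stretches, against 86.7% in the 93 with one.

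The V gene sits at the start of the heavy-chain RNA, while this assay primes at its 3′ end. In the Control library 280 of 2205 gated cells (12.7%) held an Ighv UMI at a median depth of 7576 UMIs, in the library labelled HHcy 549 of 3735 (14.7%) at 6525, and in the WD library 158 of 1270 (12.4%) at 6694. Macrophage-type barcodes with Csf1r and without Cd79a, which should lack these genes, held one in 0.155%, 0.692% and 0.209% of cells at median depths of 8393, 8865 and 10117. None of them reached 3 UMIs of an Ighv gene, which allows up to 0.155%, 0.231% and 0.105% of cells. Barcodes with Cd3e and neither Cd79a nor Csf1r held one in 1 of 103, 0 of 135 and 0 of 104 (0 allows up to 2.22% and 2.88%). The 1 Control barcode reached 3 UMIs. Barcodes with none of these 3 genes held one in 0 of 690 (which allows up to 0.435%), 9 of 738 (1.22%) and 2 of 839 (0.238%). Of the 9 labelled HHcy, 2 reached 3 UMIs. These background classes leave out barcodes with Cd79a by their rule. Of the barcodes with Cd79a and also Csf1r or Cd3e, 5 of 1020, 48 of 2140 and 9 of 1462 reached 3 UMIs.

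Cells with 3 or more UMIs of a V gene mostly carried plasma cell markers. A barcode with at least 4 of 7 plasma cell genes (Jchain, Sdc1, Xbp1, Mzb1, Prdm1, Tnfrsf17, Slamf7) was called a plasma-marker cell, and 67 of the 83 cells at this level, the 1 tied cell included, were such cells. Of all plasma-marker cells 25.1% reached it, against 0.230% of the other gated cells. The assigned plasma-marker cells held between 536 and 8731 heavy-chain constant UMIs, and the 16 other assigned cells between 14 and 253. Over all plasma-marker cells the median was only 68, 97.5 and 73 in the Control, labelled HHcy and WD libraries. Among the other cells it was 56, 59 and 57 with Bhlhe41 or Zbtb32 alone, and 22, 23 and 21 with Fcer2a alone. The label by itself thus did not mean high immunoglobulin RNA. The median assigned cell had 28251 UMIs in all, against 6772.5 over the gated cells, and 67 of the 82 carried 2 or more markers of another lineage, against 3957 of all 7210. The part of multiplets and free RNA in these barcodes was not tested.

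**Figure D1:**
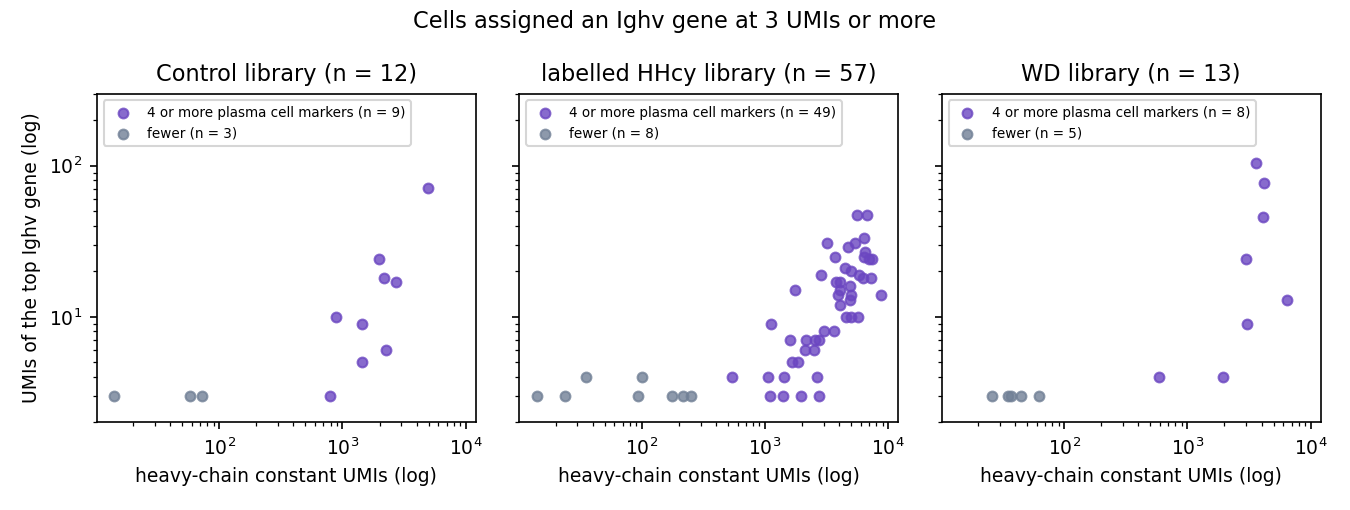
Each point is a cell assigned an Ighv gene at 3 UMIs or more, with its heavy-chain constant UMIs (x axis, log scale) and the UMIs of its top Ighv gene (y axis, log scale), 1 panel per library. Cells with 4 or more plasma cell markers (purple) lie above 500 constant UMIs and reach 104 UMIs of the V gene, and the other cells (grey) hold 3 or 4.

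Most assigned cells showed a single V gene. Of the 83 cells with 3 or more UMIs of a V gene, 62 held UMIs of that gene alone, 14 held a second gene at 1 UMI and 7 held a second gene at 2 or more. All 7 came from the library labelled HHcy. In 3 of those 7 the pair was Ighv1-78 with Ighv2-2, at 24 with 6, 10 with 6, and 13 with 25 UMIs, and all 3 barcodes shared the kappa gene Igkv4-61.

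The 82 assigned cells used 41 Ighv genes of 11 families, and no gene dominated. Of these cells 12 were from the Control, 57 from the labelled HHcy and 13 from the WD library. A gene seen only in the library labelled HHcy is thus not shown to be particular to it. Ighv1-78 led with 7 cells (1 Control, 6 labelled HHcy, 0 WD). Ighv12-3 followed with 5 cells, all in the library labelled HHcy, and Ighv1-74 with 5 (1, 4 and 0). Ighv3-6 had 4 cells, all labelled HHcy, and Ighv7-3 had 4 (2, 2 and 0). Ighv1-82 had 3, all labelled HHcy, Ighv4-1 had 3 (0, 1 and 2) and Ighv1-26 had 2, both labelled HHcy. Neither Ighv11-2 nor Ighv7-1, a gene known from natural antibodies, was assigned at 3 UMIs, since no cell held more than 1 UMI of Ighv11-2 and none more than 2 of Ighv7-1. At 1 UMI Ighv12-3 was the V gene of 8 of 278 assigned Control cells (2.88%), 7 of 541 labelled HHcy (1.29%) and 2 of 156 WD cells (1.28%).

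The gates were then compared, to ask whether follicular-type and B1-type cells of the aorta use different V genes. A cell with Fcer2a and neither Bhlhe41 nor Zbtb32 entered the Fcer2a gate, and a cell with Bhlhe41 or Zbtb32 and no Fcer2a entered the other. The Fcer2a gate held 556, 2028 and 362 cells in the Control, labelled HHcy and WD libraries, and the Bhlhe41/Zbtb32 gate 784, 515 and 370. The genes that define the classes went with the gates. In edgeR's quasi-likelihood test on UMI sums per library and gate, the follicular markers Ighd, Cr2, Ccr7 and Cd55 were higher in the Fcer2a gate and all 6 B1 markers (Cd5, Spn, Cd9, Plscr1, Ctla4, Tppp3) in the other. Of all 10747 genes in that test, 15.2% were called higher in the Fcer2a gate and 16.5% in the Bhlhe41/Zbtb32 gate, at an adjusted p under 0.05 over all of them. Plasma cell genes moved with the gates too, with 5 of 7 higher in the Bhlhe41/Zbtb32 gate, which held 137 plasma-marker cells against 45. Neutrophil genes were called higher in the Fcer2a gate for 4 of 5 and macrophage genes for 3 of 7. The summed level of the neutrophil list was 951 to 2528 CPM in the Fcer2a gate and 166 to 536 CPM in the other, that of the macrophage list 373 to 596 CPM and 212 to 329 CPM, with no marker of either list at 0. Of 4 stromal genes tested, Col1a1, Dcn and Lum were higher in the Bhlhe41/Zbtb32 gate and Pecam1 in the other, with summed levels of 74.7 to 382 CPM there against 101 to 149 CPM. Of 7 T cell genes 2 (Cd28, Cd3g) were higher in the Bhlhe41/Zbtb32 gate, at 19.2 to 29.5 against 14.0 to 38.9 CPM in sum. Of 4 marginal zone B cell genes 3 (Cr2, Cd1d1, Pik3r4) were higher in the Fcer2a gate. The part of other lineages' RNA in the gate differences was not tested.

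B1-associated V genes were found mainly in the Bhlhe41/Zbtb32 gate. The shares from here on are of cells assigned at 1 UMI unless 3 UMIs is stated, a setting taken up because so few cells reached 3. At 1 UMI, Ighv11-2 or Ighv12-3 was the V gene of 25 of 254 assigned cells there (9.84%, 6.47 to 14.2%) and of 1 of 423 cells in the Fcer2a gate (0.236%, 0.00599 to 1.31%). By library the count in the Bhlhe41/Zbtb32 gate was 14 of 106 cells in the Control (13.2%), 10 of 98 labelled HHcy (10.2%) and 1 of 50 in the WD library (2%). In the Fcer2a gate it was 0 of 72, 1 of 306 and 0 of 45. The Control and labelled HHcy libraries thus had non-overlapping intervals between the gates, and the WD library, with 1 cell against 0, did not.

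Ighv12-3 was the top gene of 7 Control cells, 6 cells labelled HHcy and 1 WD cell in the Bhlhe41/Zbtb32 gate. In the Fcer2a gate it was the top gene of 0 of 423 cells, which allows up to 0.709%. Its UMIs in the Bhlhe41/Zbtb32 gate were 7, 47 and 1 in the 3 libraries, and in the Fcer2a gate 0, 1 and 0. Each of the 7 Control cells held a single UMI, while 25 of the 47 UMIs labelled HHcy came from 1 plasma-marker cell. Ighv11-2 had 7, 5 and 0 UMIs in the Bhlhe41/Zbtb32 gate, each in a cell of its own, and 0, 1 and 0 in the Fcer2a gate. Both genes thus had more UMIs in the Bhlhe41/Zbtb32 gate of both the Control and the labelled HHcy library, and too few in the WD library to compare. Scaled to the total UMIs of each gate, Ighv12-3 stood at 0.738 against 0 CPM in the Control and 6.22 against 0.0681 labelled HHcy. Ighv11-2 stood at 0.738 against 0 and 0.662 against 0.0681 CPM. In the Control the Fcer2a gate had fewer and shallower cells (556 at a median of 5667.5 UMIs, against 784 at 11120.5), so its 0 is a weak limit.

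Without plasma-marker cells the families 11 and 12 still made up 19 of 189 cells (10.1%) in the Bhlhe41/Zbtb32 gate and 1 of 413 (0.242%) in the Fcer2a gate. At 3 UMIs only 51 and 7 cells were assigned in these gates, and 4 of the 51 (7.84%, 2.18 to 18.9%) used Ighv12-3, all labelled HHcy. Ighv7-1 had 2 cells in each gate at 1 UMI.

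In the test across genes no Ighv gene passed the filter on low counts, so none was tested in the main fit, and none had an unadjusted p. With no filter, edgeR called 10 of 99 Ighv genes higher in the Bhlhe41/Zbtb32 gate and 0 higher in the Fcer2a gate, beside 10.8% and 10.1% of 18722 genes, so the first share was near the background, and 13 had an unadjusted p under 0.05. Over the 22 fits run, 0 to 12 Ighv genes were called. The 12 were of 96 with no filter and without the Control library, beside 1944 of 18186 genes in the same direction. The edgeR fits with the filter held no Ighv gene, save 1 without the Control library and 6 without the WD library. The 10 genes were Ighv1-78, Ighv12-3, Ighv1-74, Ighv9-3, Ighv7-3, Ighv4-1, Ighv1-11, Ighv1-81, Ighv3-6 and Ighv2-2. The median log2 difference (Fcer2a minus Bhlhe41/Zbtb32) was 0.15 over the 99 and -0.02 over all genes. With a floor of 3 UMIs per gate it was -0.34 over the 54 Ighv genes above that floor and 0.06 over 15107 genes, so the sign of the Ighv median differed between these measures.

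Single cells carried large parts of these sums, from 22.9% for Ighv1-78 upward. Of the UMIs of Ighv1-11 in the gates 95% lay in 1 cell, of Ighv4-1 88.5% (a WD cell with 77) and of Ighv9-3 75.9% (a WD cell with 104). With no filter and without plasma-marker barcodes none of the 10 was called. The log2 difference then stayed negative for Ighv12-3 (-2.91), Ighv1-11 (-1.38) and Ighv1-78 (-1.10). It turned positive for Ighv1-81 (2.48), Ighv3-6 (2.13), Ighv7-3 (1.86), Ighv1-74 (1.28), Ighv2-2 (0.72), Ighv4-1 (0.43) and Ighv9-3 (0.19). When the number of cells with a UMI was tested in place of the UMIs, 1 gene was called higher in the Bhlhe41/Zbtb32 gate, Ighv12-3 (edgeR log2 difference -3.97, SE 1.32, adjusted p = 0.0142), beside 12.2% of all genes. DESeq2 on the sums also called Ighv12-3 alone among 18 Ighv genes with an adjusted p (log2 difference -4.58, SE 1.45, adjusted p = 0.0147), beside 8.47% of all genes with an adjusted p (6.42% were higher in the Fcer2a gate). With no filter and without the library labelled HHcy, Ighv12-3 was not called (edgeR log2 difference -4.58, adjusted p = 0.466). Without plasma-marker barcodes Ighv12-3 was not called by edgeR (log2 difference -2.91, SE 1.75, adjusted p = 0.277). Ighv11-2 missed the threshold in the test on cells (log2 difference -3.56, SE 1.47, adjusted p = 0.0613).

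**Figure D2:**
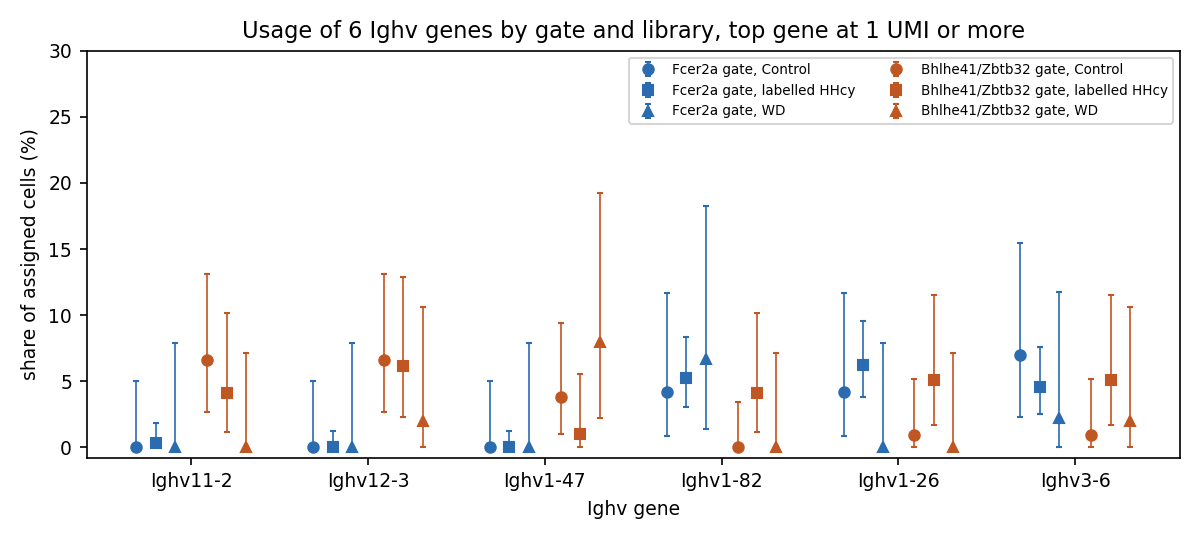
The share of assigned cells (y axis, percent, top gene at 1 UMI or more) that used each of 6 Ighv genes (x axis), with exact 95% intervals, for the Fcer2a gate (blue) and the Bhlhe41/Zbtb32 gate (orange) in the Control (circles), labelled HHcy (squares) and WD (triangles) libraries. Ighv12-3 is at 0 in the Fcer2a gate of all 3 libraries and at 6.60%, 6.12% and 2% in the other gate.

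For 2 family 1 genes and Ighv3-6, counts of cells and sums of UMIs were set side by side. Ighv1-82 was the V gene of 22 of 423 cells there (5.20%) and of 4 of 254 (1.57%) in the Bhlhe41/Zbtb32 gate. By library the Fcer2a gate held 3, 16 and 3 such cells and the Bhlhe41/Zbtb32 gate 0, 4 and 0. With all cells its UMI sum was not called (edgeR with no filter, log2 difference -1.05, SE 0.62, adjusted p = 0.270). Without plasma-marker barcodes it was the only Ighv gene called, higher in the Fcer2a gate (log2 difference 3.83, SE 1.27, adjusted p = 0.0145), beside 11.3% of all genes. Of the 53 UMIs in the Bhlhe41/Zbtb32 gate labelled HHcy, 31, 14 and 7 lay in 3 plasma-marker cells. With all cells and no filter, the sum was called higher in the Bhlhe41/Zbtb32 gate without the Control library (log2 difference -1.84, adjusted p = 0.00644), and its sign turned without the library labelled HHcy (5.20, adjusted p = 0.193) and in DESeq2 (2.11, adjusted p = 0.411). Ighv1-26 was used by 22 cells of the Fcer2a gate and 6 of the other, and was not called with no filter. Ighv3-6 was used by 20 and 7 cells, while its UMI sum was among the 10 higher in the Bhlhe41/Zbtb32 gate, with 33 of its 98 UMIs in 1 cell. Ighv1-47, picked out after its values were seen, ran the other way, with 0 of 423 cells in the Fcer2a gate (which allows up to 0.709%) and 9 of 254 in the other (4, 1 and 4 by library), and it was not called (edgeR with no filter, adjusted p = 0.127).

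Family 1 and family 8 lie in the distal part of the locus, far from the constant genes, starting at 114332796 or beyond, while no other family reaches past 114565012. Grouped after the values were seen, they made up 61.0% of assigned cells in the Fcer2a gate and 43.3% in the Bhlhe41/Zbtb32 gate at 1 UMI. The shares were 52.8% (40.7 to 64.7%) and 31.1% (22.5 to 40.9%) in the Control library. They were 61.4% (55.7 to 66.9%) and 55.1% (44.7 to 65.2%) in the library labelled HHcy. In the WD library they were 71.1% (55.7 to 83.6%) and 46% (31.8 to 60.7%). The Fcer2a gate was higher in 3 of 3 libraries, and the intervals overlapped in the libraries labelled HHcy and WD and narrowly in the Control. The pooled difference was 17.7 percentage points (10.0 to 25.3), over gates that draw on the libraries unequally, with 306 of 423 cells of the Fcer2a gate and 98 of 254 of the other labelled HHcy. Its interval is a normal approximation that counts each pooled cell as independent, so it does not measure the spread between libraries and is no test of the gates. Without the Control library the pooled difference was 10.7 points (1.14 to 20.2). At 3 UMIs, with 7 cells in the Fcer2a gate, too few for the approximation, it was 12.6 points (-23.5 to 48.7), an interval that holds 0. Without plasma-marker cells the pooled shares were 61.0% and 40.7%.

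**Figure D3:**
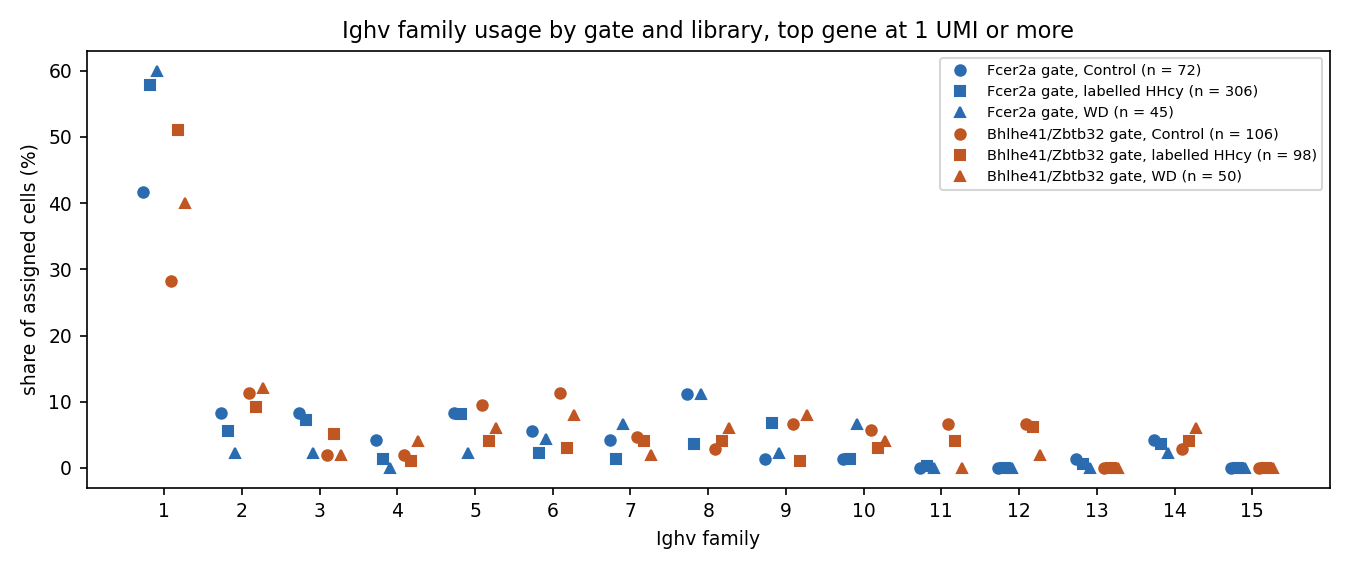
The share of assigned cells (y axis, percent, top gene at 1 UMI or more) that used each Ighv family (x axis), by gate (blue, Fcer2a, and orange, Bhlhe41/Zbtb32) and library (circles Control, squares labelled HHcy, triangles WD). Family 1 leads in every series, and families 11 and 12 lie at or near 0 in the Fcer2a gate.

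The gates also differed in V reads per heavy-chain constant read, a measure added after values were seen. In cells that were not plasma-marker cells, the Fcer2a gate held 5.38 (4.25 to 6.71), 6.71 (6.03 to 7.46) and 6.10 (4.61 to 7.92) Ighv UMIs per 1000 heavy-chain constant UMIs in the Control, labelled HHcy and WD libraries. The Bhlhe41/Zbtb32 gate held 2.30 (1.88 to 2.78), 2.15 (1.64 to 2.76) and 2.57 (1.94 to 3.34). The ratio of the gates was 2.34, 3.13 and 2.38, and the intervals did not overlap in any library. For the kappa chain the ratios of Igkv UMIs per 1000 Igkc UMIs were 0.917, 1.05 and 0.730. When these cells were thinned to 2000 UMIs, 5.79%, 4.46% and 4.83% of the cells in the Fcer2a gate held an Ighv UMI against 1.61%, 1.37% and 2.59% in the Bhlhe41/Zbtb32 gate. Thinned with plasma-marker cells included, the shares were 5.67%, 4.45% and 4.79% against 2.30%, 5.25% and 3.78%. The Bhlhe41/Zbtb32 gate was then the higher one in the library labelled HHcy. Unthinned and with plasma-marker cells, the shares were 12.9%, 15.3% and 12.7% against 13.5%, 19.2% and 13.5%. The median depths were higher in the Bhlhe41/Zbtb32 gate (11120.5 against 5667.5 UMIs in the Control). Thinning left out 9, 4 and 7 cells of the Fcer2a gate and 1, 1 and 0 of the other. With plasma-marker cells included the ratio fell to 1.45 and 1.64 in the first 2 libraries and turned to 0.870 in the WD library, where 2 cells held 104 and 77 V UMIs. At most 5% mitochondrial UMIs the WD ratio was 1.48 (0.880 to 2.49). Whether the counting lost more V reads in one gate than in the other was not tested.

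**Figure D4:**
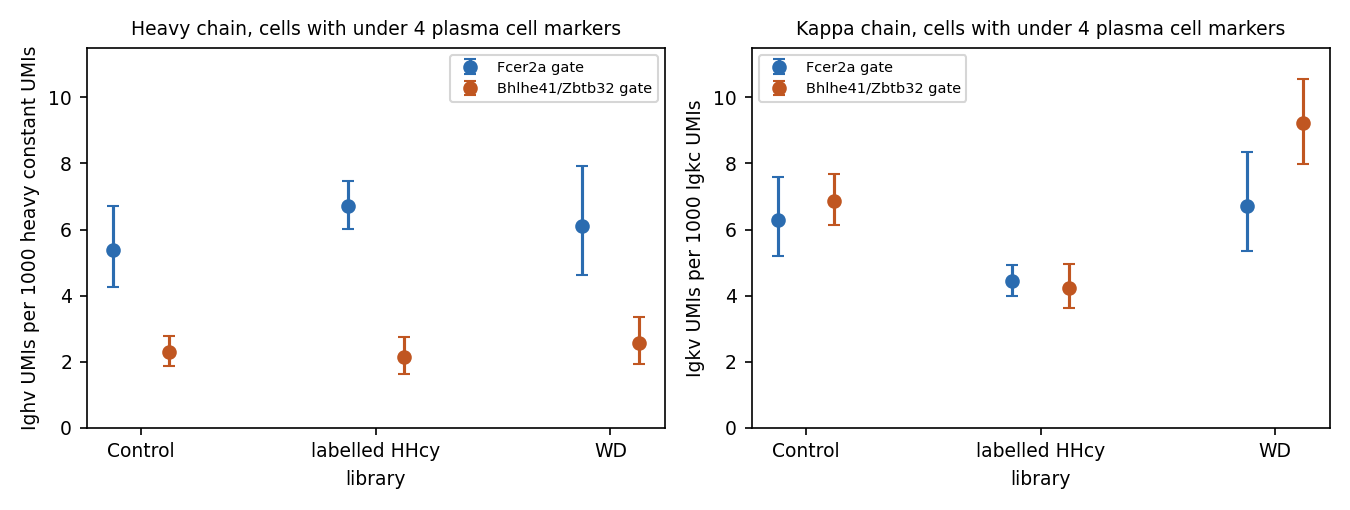
V gene UMIs per 1000 constant gene UMIs (y axes) for the heavy chain (left) and the kappa chain (right) by library (x axis) and gate (blue, Fcer2a, and orange, Bhlhe41/Zbtb32), in cells with fewer than 4 plasma cell markers, with exact Poisson 95% intervals. The heavy-chain values of the Fcer2a gate, 5.38 to 6.71, lie above those of the other gate, 2.15 to 2.57, and the kappa values do not separate in the same way.

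The heavy-chain constant genes moved with the gates. In the same edgeR fit Ighd, which marks unswitched follicular cells, was higher in the Fcer2a gate (log2 difference 3.4, adjusted p = 4.71e-07). Of the 7 constant genes tested, 5 were higher in the Bhlhe41/Zbtb32 gate, beside 16.5% of all genes, led by Igha (-6.96, adjusted p = 9.58e-08) and Ighg2c (-6.22, adjusted p = 5.99e-07), and Ighg1 was not called (-3.61, adjusted p = 0.234). Ighm, at -1.31 (adjusted p = 0.00081), was among the 5. Plasma-marker cells held much of this RNA. The heavy-chain constant UMIs of the Bhlhe41/Zbtb32 gate were 64985, 166818 and 44545 in the Control, labelled HHcy and WD libraries with them and 45684, 28422 and 21411 without. In the edgeR fit without them Igha (-1.09, adjusted p = 0.0144), Ighg3 (-1.955, adjusted p = 0.00318) and Ighm (-0.82, adjusted p = 1.89e-05) were still called higher in that gate. Ighg2c (-0.03, adjusted p = 0.931) and Ighg2b (-0.43, adjusted p = 0.284) were not, so those 2 calls were lost.

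Each cell assigned at 3 UMIs was then read for its constant gene. Ighm was the main constant gene of 39 of the 82 cells, Ighg2c of 13, Igha of 11, Ighg2b of 8, Ighg1 of 7 and Ighg3 of 4. All 43 cells with a switched constant gene were plasma-marker cells, and so were 23 of the 39 Ighm cells. The Control library held 3 Ighm, 4 Igha, 3 Ighg2c and 2 Ighg2b cells. The library labelled HHcy held 28 Ighm, 8 Ighg2c, 7 Ighg1, 5 Igha, 5 Ighg2b and 4 Ighg3 cells, and the WD library 8 Ighm, 2 Igha, 2 Ighg2c and 1 Ighg2b cell. Ighg1 and Ighg3 were thus seen in the library labelled HHcy and in 0 of 12 and 0 of 13 cells of the others, which allows up to 25% and 23.1%. Of the 4 Ighg3 cells, 3 were Ighv1-78 cells and 1 was an Ighv2-2 cell with Ighv1-78 as its second gene. All 4 had the kappa gene Igkv4-61, so they are not shown to be independent cells.

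**Figure D5:**
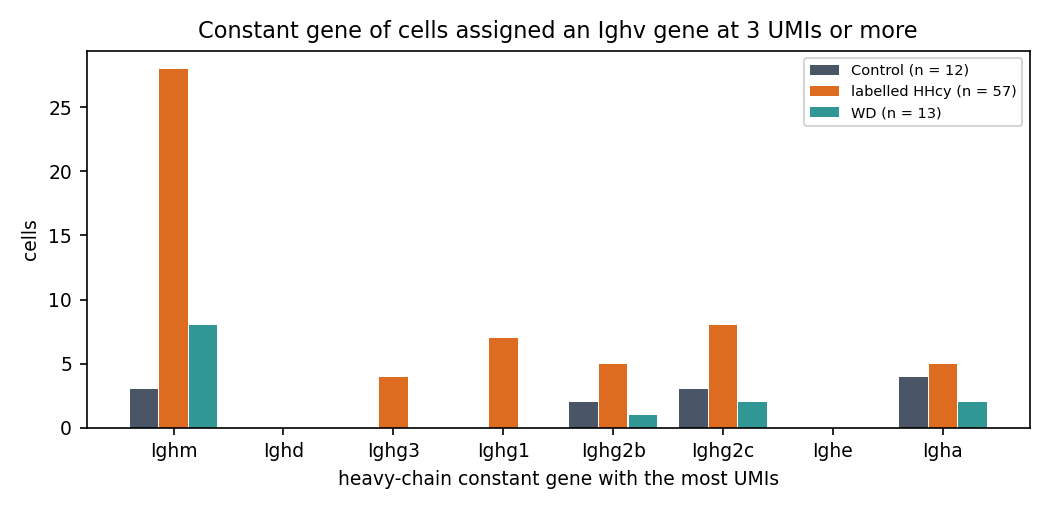
The number of cells (y axis) assigned an Ighv gene at 3 UMIs or more by the heavy-chain constant gene with the most UMIs in the cell (x axis), for the Control, labelled HHcy and WD libraries. Ighm leads in the labelled HHcy (28 of 57) and WD (8 of 13) libraries, and Igha in the Control (4 of 12).

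Kappa partners were read in cells with more Igkc than Iglc UMIs, since 27 of the 30 assigned cells whose top light V gene was Iglv1 held more of the kappa constant gene, against what Iglv1 as the used gene would give. Of the 82 assigned cells 60 then had a kappa V gene at 3 UMIs. Junction sequences are not in the data, so a shared pair of V genes is not shown to be a clone. In the gated cells 48 sets of Ighv, Igkv and constant gene were found, of which 8 held 2 cells of a library and 2 held 3. The sets with 3 were Ighv1-74 with Igkv17-121 and Ighg2b, and Ighv1-78 with Igkv4-61 and Ighg3, both labelled HHcy. Ighv1-78 with Igkv4-61 was also found with Igha in 2 cells of that library, so the same pair of V genes came with different constant genes. In the Control library Ighv7-3 with Igkv4-57-1 and Igha was found in 2 cells.

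Ighv12-3 showed 2 kappa partners among its assigned cells, Igkv4-91 with Ighm in 2 cells and Igkv10-96 with Ighg2c in 2 cells, all labelled HHcy. At 1 UMI of each chain, Igkv4-91, the partner known for phosphatidylcholine binding with Ighv12-3, was the kappa gene of 3 of 6 Ighv12-3 cells (1 Control, 2 labelled HHcy) and of 2 of 235 cells with V genes other than Ighv11-2 and Ighv12-3. Igkv14-126, the known partner of Ighv11-2, was found in 2 of 5 Ighv11-2 cells, both in the Bhlhe41/Zbtb32 gate labelled HHcy, and in 0 of the 235 others (which allows up to 1.28%). All 5 of those Ighv11-2 cells had Ighm as their main constant gene.

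Usage was last compared between libraries. At least 3 UMIs of a V gene were held by 0.544% of gated Control cells (0.282 to 0.949%), by 1.55% labelled HHcy (1.18 to 2.003%) and by 1.02% of WD cells (0.546 to 1.74%). Set against the Control, the assigned share labelled HHcy had a log2 ratio of 1.49 (0.59 to 2.38), and that of the WD library one of 0.91 (-0.22 to 2.04). Without plasma-marker barcodes the first was 0.67 (-1.25 to 2.58), so its interval then held 0. At the gate mix of the Control it was 2.46, and at 1 UMI it was 0.20 (0.01 to 0.39). Plasma-marker cells made up 76 of 2205, 156 of 3735 and 35 of 1270 gated cells.

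Family 1 had a larger share in the library labelled HHcy than in the Control at 1 UMI, and not at every threshold. At 1 UMI it made up 39.2% of assigned Control cells, 54.2% of those labelled HHcy (log2 ratio 0.47, 0.23 to 0.70) and 46.8% of WD cells (0.26, -0.07 to 0.58). With the labelled HHcy library at the gate mix of the Control its ratio was 0.42, at 3 UMIs it was 0.07 (-0.82 to 0.96), and at 5 UMIs its sign turned (-0.22, -1.10 to 0.66). Family 6 ran the other way, at 8.99%, 3.33% (log2 ratio -1.43, -2.28 to -0.59) and 7.05%, but at 3 UMIs it had 0 of 12 Control cells and 3 of 57 labelled HHcy (5.26%). At 3 UMIs no gene reached the 20 cells over a pair of libraries set for naming. At 1 UMI 8 genes did for the labelled HHcy library, and the interval left out 0 for 3 of them. Ighv1-82 was higher than in the Control (4.25% against 1.44%, log2 ratio 1.56, 0.05 to 3.08), while within the Fcer2a gate it had 16 of 306 cells against 3 of 72 (5.23% against 4.17%, log2 ratio 0.33, -1.41 to 2.07). In the Bhlhe41/Zbtb32 gate it had 4 of 98 against 0 of 106. Of the assigned cells, 306 of 541 labelled HHcy and 72 of 278 Control cells lay in the Fcer2a gate. Ighv2-2 (1.66% against 4.68%, -1.49, -2.70 to -0.28) and Ighv6-3 (1.85% against 5.04%, -1.45, -2.60 to -0.29) were lower, and within either gate their intervals held 0. For the share of gated cells with a UMI, the same interval rule was passed by 11% of 12882 genes upward and 27.8% downward, so 1 gene up and 2 down of 8 were near the background, although that share is of all gated cells and not of assigned ones. For the WD library 2 genes reached 20 cells and 0 passed, beside 6.54% and 15.2% of 12102 genes. Ighv1-26, with 31 cells labelled HHcy and 9 Control cells, had 0 of 156 in the WD library, which allows up to 1.92%.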

How the data were processed

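The members, gates and gene lists were chosen with earlier results of these data known. The authors deposited raw UMI counts per gene and barcode, with Cell Ranger 4.0.0 named in the file headers, while the submitters' processing notes name Cell Ranger 2.2.0 and mm10, and the annotation is not given in the sources used here. The libraries held 66789257, 105180370 and 93164076 UMIs in 7512, 9753 and 8557 called barcodes, of which 6038, 8155 and 6710 passed the limits on genes and mitochondrial UMIs. No doublet caller was run, and barcodes with 2 or more markers of a single other lineage were left out as an alternative. Libraries shared 20 to 24 barcodes in pairs, 0 to 3 of them gated.

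Counts were summed per library and gate and fitted with edgeR's quasi-likelihood test (library as a block, TMM scaling, filterByExpr, Benjamini-Hochberg adjustment over all genes). The fit was checked on simulated counts of genes that passed the filter, so the check does not cover the fits with no filter. Both gates of a library come from the same sort, so the spread may be technical. DESeq2 was an alternative. Positions and V exon sequences came from GENCODE M21. Shares carry exact Clopper-Pearson 95% intervals and a count of 0 is given the limit that 3 counts allow. Differences of shares and log2 ratios between libraries carry normal-approximation 95% intervals that count each cell as independent. A marker at 1 UMI set the gate. Named were the 8 genes with most assigned cells (ties by cells at 1 UMI), up to 6 genes per direction called between gates and alike in all 3 libraries, Ighv11-2, Ighv12-3 and Ighv7-1, and up to 5 genes per direction and library comparison with at least 20 assigned cells and an interval without 0. Genes called in alternatives, Ighv1-47 and repeated pairs were named after their values were seen. The files held 0 columns of other samples. One marker of the follicular list is not reported here.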

Additional observations from a re-analysis of the deposited data

Results flagged for a closer look

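Barcodes left out by the B cell rule also held V gene RNA. At least 3 UMIs of an Ighv gene were found in 50 of 4420 quality-passing barcodes outside the gate in the library labelled HHcy (1.13%, 0.841 to 1.49%), above the 6 of 3833 in the Control (0.157%, 0.0575 to 0.340%), and in 9 of 5440 in the WD library (0.165%). Of these 65 barcodes 60 were plasma-marker cells, 58 held Csf1r and 15 held Cd3e, and their median depth was 41842 UMIs. Of the 35 Ighv genes they used, 22 were among the 41 of the gated cells. The part of multiplets was not tested.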

How the results depend on the processing

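Of 164 values recomputed for the main comparisons, 132 stayed within the counting interval or count of the value reported, and 32 did not. The 132 include counts of 0 from fits that tested no Ighv gene, which could not move. The sign turned in 9 of the 164, of which 6 stayed within the counting interval, all for values whose own interval held 0. The number of Ighv genes higher in the Bhlhe41/Zbtb32 gate was 0 in the planned fit. It was 10 of 99 with no filter (beside 2019 of 18722 genes) and 1 of 99 on cells with a UMI and no filter (beside 2283). With DESeq2, which has fewer Ighv genes with an adjusted p, it was 1 of 18 (beside 1032 of 12188 genes). Leaving out a library it was 0 to 1, the 1 of 6 without the WD library (beside 991 of 11249 genes). With no filter it was 12 of 96 without the Control (beside 1944 of 18186 genes). It was then 4 of 75 without the library labelled HHcy (beside 1680 of 17388) and 8 of 96 without the WD library (beside 1329 of 18277). Of the filtered edgeR fits, only those without the Control library (1 gene) and without the WD library (6 genes) tested an Ighv gene. In the others, that with no library block included, the count of 0 in either direction was fixed in advance. The number higher in the Fcer2a gate was 0, and 1 of 91 with no filter and without plasma-marker barcodes. That held for UMIs (beside 2078 of 18389 genes) and for cells (beside 2225). Families 11 and 12 in the Bhlhe41/Zbtb32 gate at 3 UMIs fell from 7.84% to 0% without plasma-marker barcodes, without multi-lineage barcodes or without the library labelled HHcy (range 0 to 9.52% leaving out a library), where few assigned cells were left. At 1 UMI the share was 7.43 to 11.8% leaving out a library, and in the Fcer2a gate the single cell was lost (0%) at 3 or 5 UMIs, without multi-lineage barcodes, at 5% mitochondrial UMIs, with 2 UMIs of the gate marker or without the library labelled HHcy (range 0 to 0.285%). The difference in families 1 and 8 was 39.0 points at 5 UMIs, where the Fcer2a gate held 1 assigned cell, 12.6 points at 3 UMIs, 35.2 points without multi-lineage barcodes and 10.7 to 23.9 points leaving out a library. The assigned share labelled HHcy over Control, 1.49 on the log2 scale, was 0.20 at 1 UMI and 2.46 at the Control gate mix. Family 1 at 1 UMI labelled HHcy over Control, 0.47, was 0.074 at 3 UMIs, -0.22 at 5 UMIs, where it reversed, and 0.71 without multi-lineage barcodes. For the WD library family 1 was 1.26 at 3 UMIs without plasma-marker barcodes and -0.32 at 5 UMIs, a turned sign at either starting threshold. The V per constant ratio was 1.45, 1.64 and 0.87 with plasma-marker barcodes, which reversed it in the WD library, 7.41 labelled HHcy without multi-lineage barcodes, and 1.48 in the WD library at 5% mitochondrial UMIs. The cause of these moves was not tested. Depth limits all of this, since 83 of 7210 cells had 3 UMIs of a V gene. The gates were paired by library in the planned fit. No paired analysis was possible because each treatment group has 1 library and the labels give no replicate numbers. Alternatives on 1 UMI, on V per constant reads, on fits with no filter combined with another choice, and without the Csf1r and Cd3e limits were chosen after seeing the data.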

Other observations

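Repeated pairs of heavy and kappa V genes were seen on both sides of the B cell rule. When quality-passing barcodes with Csf1r, with Cd3e or without Cd79a were read along with the gated cells, 115 had a V gene and a kappa V gene at 3 UMIs each. They held 79 pairs of heavy and kappa V genes within a library, of which 17 were seen in 2 or more barcodes, 15 of them in the library labelled HHcy. Barcodes with 3 UMIs of a V gene numbered 12 gated and 6 outside the gate in the Control, and 13 and 9 in the WD library. They numbered 58 and 50 in the library labelled HHcy, so far more barcodes were read there. Ighv1-78 with Igkv4-61 was seen in 10 barcodes of that library (5 gated), with Ighg3, Igha or Ighg2c as the main constant gene. Ighv1-74 with Igkv17-121 was seen in 6, all with Ighg2b, Ighv12-3 with Igkv10-96 in 5, all with Ighg2c, and Ighv9-2 with Igkv4-72 in 4, all with Ighg2c. Of 78 pairs over the libraries, 1 was seen in more than 1 library, Ighv8-12 with Igkv3-4.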
